A study of Mus musculus with 57 samples.

Results

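Renal vesicle cells that carried Wt1 without distal genes were set against renal vesicle cells that carried distal genes without Wt1. Both classes were read from the cells' own values. Among the 57 profiled cells, 50 had the nephron transcription factor Pax8 at RPKM 5 or more (RPKM is a read count divided by gene length and by sequencing depth). Of these, 26 were Wt1-only cells, with Wt1 at RPKM 20 or more and Sox9, Dll1, Papss2, Pou3f3 and Dkk1 all below 20. Another 14 were distal-gene-only cells, with Wt1 below 20 and at least 1 of those 5 genes at 20 or more. The other 10 Pax8 cells entered neither class: 9 held both Wt1 and a distal gene, and 1 held neither.

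All cells came from mice with the genotype Tg(Crym-EGFP)82Gsat, a transgene that puts a green fluorescent reporter under the control of the Crym gene, at postnatal day 4. The mice were of mixed background and unknown sex, and a single pool of 2 kidneys gave every cell of both classes. Cells were sorted by fluorescence and captured one by one on a Fluidigm C1 chip before cDNA amplification and sequencing. The classes therefore differ in no genotype, age or treatment, and cells of a pool are not replicate animals, so differences are given with SDs over cells and without a test.

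The renal vesicle is the first epithelial stage of the nephron, formed when cells of the cap mesenchyme condense and polarise. It is patterned early along its length. Its proximal side, where Wt1 is kept, gives rise to the glomerular podocytes and the capsule around them, and its distal side, where Notch ligands, Lhx1 and Sox9 are strong, gives rise to tubule and joins the ureteric tip. Wt1 encodes a zinc finger transcription factor, Sox9 and Pou3f3 encode transcription factors of the distal side, Dll1 a Notch ligand, Papss2 an enzyme that makes the donor for sulfation, and Dkk1 a secreted Wnt antagonist.

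The values that chose the classes are a description and nothing more. The lowest Wt1 level in a Wt1-only cell was RPKM 32.4 (cell 57), and the highest in a distal-gene-only cell was 10.9 (cell 47). In each distal-gene-only cell the highest of the 5 distal genes was at RPKM 75.9 or more, the lowest being cell 47. In the Wt1-only cells the highest distal value was 17.2 (cell 9) and the next was 14.7 (cell 39). Of the 14 distal-gene-only cells, 4 had all 5 distal genes at 20 or more, 4 had 4 of them, 2 had 3, 3 had 2 and 1 had a single one. Cells 3, 47 and 50 held none of Sox9, Papss2 and Dkk1 at RPKM 20.

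**Figure D1:**
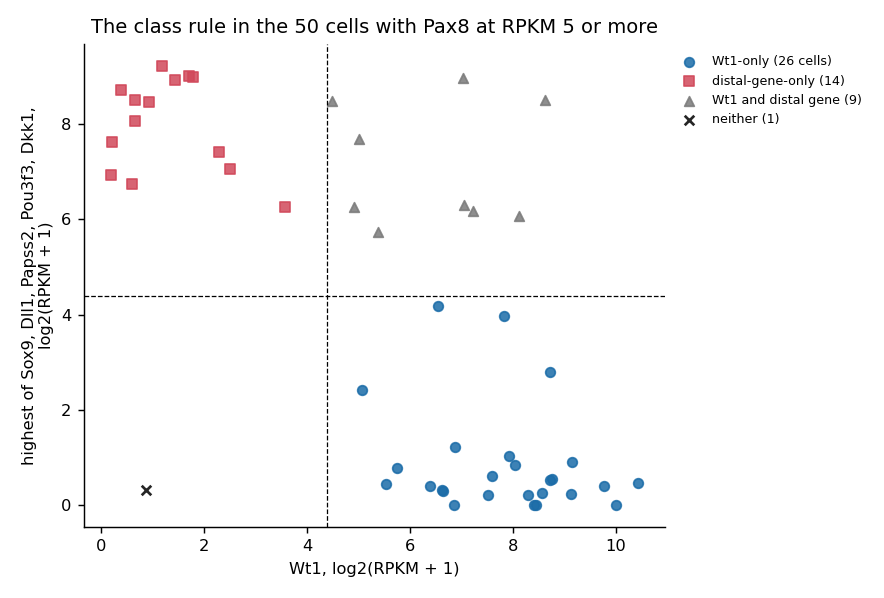
Wt1 (horizontal axis) against the highest of the 5 distal genes (vertical axis) in the 50 Pax8 cells, both as log2(RPKM + 1), with the cut of RPKM 20 as dashed lines. The 26 Wt1-only cells lie at the lower right, the 14 distal-gene-only cells at the upper left, and the 9 cells with both at the upper right.

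The classes were close in depth. The number of genes detected per cell, at RPKM 1 or more, was 3692 to 5713 (median 4307) in Wt1-only cells and 2809 to 5473 (median 4368.5) in distal-gene-only cells. Depth was estimated by taking the commonest value of RPKM times transcript length as 1 read. It was 0.779 to 2.25 M reads (median 1.45 M) in Wt1-only cells and 0.511 to 2.01 M reads (median 1.52 M) in distal-gene-only cells. Markers of the nephron epithelium were present in both classes. The summed RPKM of Jag1 and Lhx1 was 3.49 to 649 (median 205) in Wt1-only cells and 353 to 917 (median 472) in distal-gene-only cells, and it was below 20 in 3 Wt1-only cells and in no distal-gene-only cell.

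Away from the 7 genes of the rule, differences between the classes were centred near 0. Of 12087 genes, 10558 had a mean RPKM of 1 or more over the 40 cells and were compared, and 1522 fell under that filter. The median difference in mean log2(RPKM + 1), Wt1-only minus distal-gene-only, was 0.02, with quartiles of -0.47 and 0.47, and 51.1% of the genes were higher on average in Wt1-only cells. A difference of 3 log2 units or more was seen for 18 genes higher in Wt1-only cells (0.17% of the genes compared) and for 26 higher in distal-gene-only cells (0.246%). Together these were 44 genes (0.417%). At 2 log2 units 120 genes (1.14%) were higher in Wt1-only cells and 137 (1.3%) in distal-gene-only cells. The limits of 2 and 3 are sizes, not tests, and the genes were picked from the same values. With a pseudocount of 0.1 in place of 1 the counts at 3 log2 units were 117 on the Wt1-only side and 137 on the distal side, and with 10 they were 1 on each side. Scaling each cell to a sum of RPKM of 1000000 gave 44 on the Wt1-only side and 50 on the distal side, and scaling to the median sum gave 19 and 26. Of the 44 genes, 13 of the 18 and 16 of the 26 stayed past 3 log2 units whichever single cell was left out. The exceptions were Acaa2, Cpe, Gstm1, Nrip2 and Snora70, which came down to between 2.76 (Snora70 without cell 2) and 2.92 (Nrip2 without cell 17), and Clu, Cirh1a, Rab11a, Defb25, Efna5, Hoxb6, Stxbp6, Tmem218, Ddah1 and Spint2, which came to between -2.67 (Tmem218 without cell 52) and, for Clu without cell 16, just short of -3. Without cells 3, 47 and 50, which held none of Sox9, Papss2 and Dkk1, 29 genes were higher by 3 log2 units in Wt1-only cells and 45 in distal-gene-only cells. No gene among the 44 separated the classes cell by cell: in each, some cells of the classes overlapped. In counts of cells instead of levels, 27 genes (0.256%) were detected in a share of Wt1-only cells at least 50 percentage points above that of distal-gene-only cells, and 35 (0.332%) the other way. Without cell 42, 47 or 52 the last count was 54, 57 or 53.

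The promoters of 4 leading genes named in the text are shown as examples and do not stand for the other leading genes. Each runs from 250 bases before to 50 bases after the annotated start of transcription, 5′ to 3′, from RefSeq on build GRCm38.p6. Capitals mark the core letters bound by RBPJ, the DNA-binding partner of Notch (TGGGAA, either strand).
Pmp22, higher in Wt1-only cells, chr11:63128732-63129031, + strand: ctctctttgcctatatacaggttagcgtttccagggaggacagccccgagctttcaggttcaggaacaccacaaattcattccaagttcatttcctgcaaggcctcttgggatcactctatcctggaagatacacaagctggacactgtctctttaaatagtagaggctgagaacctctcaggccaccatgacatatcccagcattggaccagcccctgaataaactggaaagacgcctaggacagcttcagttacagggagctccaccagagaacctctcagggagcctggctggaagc
Wfdc2, higher in distal-gene-only cells, chr2:164562465-164562764, + strand: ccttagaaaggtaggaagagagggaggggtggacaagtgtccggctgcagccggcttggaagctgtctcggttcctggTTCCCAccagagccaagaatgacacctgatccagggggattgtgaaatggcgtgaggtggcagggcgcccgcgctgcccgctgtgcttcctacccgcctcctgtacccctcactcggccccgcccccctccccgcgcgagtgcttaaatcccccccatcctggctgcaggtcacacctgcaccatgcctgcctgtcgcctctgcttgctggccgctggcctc
Prom1, higher in distal-gene-only cells, chr5:44101687-44101986, - strand: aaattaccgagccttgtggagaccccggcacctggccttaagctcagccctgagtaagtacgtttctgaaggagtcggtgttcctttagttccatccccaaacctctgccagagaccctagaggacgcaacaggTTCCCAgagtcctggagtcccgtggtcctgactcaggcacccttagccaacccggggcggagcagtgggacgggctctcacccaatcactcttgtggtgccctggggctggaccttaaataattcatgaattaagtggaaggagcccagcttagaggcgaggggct
Emx2, higher in distal-gene-only cells, chr19:59458440-59458739, + strand: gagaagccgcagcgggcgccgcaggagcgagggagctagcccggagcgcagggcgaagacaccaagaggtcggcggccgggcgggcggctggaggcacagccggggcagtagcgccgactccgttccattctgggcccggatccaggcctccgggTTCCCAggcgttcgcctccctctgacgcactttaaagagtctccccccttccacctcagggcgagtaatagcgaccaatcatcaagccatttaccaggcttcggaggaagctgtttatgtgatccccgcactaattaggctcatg

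The match lies on the opposite strand (TTCCCA) in all 3 of the distal promoters printed, starting at position -172 from the start of transcription in Wfdc2, -116 in Prom1 and -95 in Emx2. The window of Pmp22 holds no such letters, nor do those of Prnp and Etv5, leading distal genes whose promoters are not printed. RefSeq promoters were matched for 14 of the 25 leading genes that were higher in Wt1-only cells and for 18 of the 25 that were higher in distal-gene-only cells. The RBPJ letters occurred in 3 of the 14 (21.4%: Btg2, Vps41 and Gstm2) and in 8 of the 18 (44.4%: Wfdc2, 2900092D14Rik, Prom1, Emx2, 4930523C07Rik, Rab3ip, Rab11a and Stxbp6), against 22.8% of the 8373 promoters matched among all compared genes. The letters GCGGGGGCG, which WT1 and EGR proteins bind, occurred in 0 of the 14 and 2 of the 18 (Pcbd1 and Rab3ip), against 5.61% of all. An ETS site (CCGGAAGT) occurred in 0 of the 14 and 2 of the 18 (Cirh1a and Rab11a), against 9.39% of all. A TCF/LEF site (CTTTGAT) occurred in 0 of the 14 and 1 of the 18 (Tmem218), against 2.40% of all. Both strands were searched, none of these letter strings contains another, and a match is a string of letters and not a site shown to be used.

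The genes that led in Wt1-only cells included a myelin and junction protein, an extracellular protease, a heparan sulfate modifier and the imprinted transcript H19. Pmp22, a tetraspan membrane protein named for peripheral myelin (mm9 chromosome 11, 62945012 to 62973048), was at RPKM 1.92 at the lowest, 323 at the median and 3863 at the highest in Wt1-only cells, against 0.281, 3.02 and 254 in distal-gene-only cells. It reached RPKM 20 in 22 of 26 Wt1-only cells and in 4 of 14 distal-gene-only cells, so the classes overlapped in a few cells at each end. Its mean log2(RPKM + 1) was 7.81 ± 2.71 in Wt1-only cells and 3.04 ± 2.59 in distal-gene-only cells (SD over 26 and 14 cells), a difference of 4.77. The authors' deposited table, which sets a proximal class of its own against a distal class, gives Pmp22 a fold of 65.0 toward the proximal class. That table shares cells with the comparison, so its folds are not independent evidence.

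Sncaip, which encodes a partner of alpha-synuclein, was detected in 23 of 26 Wt1-only cells (88.5%, exact 95% interval 69.8 to 97.6) and in 2 of 14 distal-gene-only cells (14.3%, 1.78 to 42.8), with a difference of 4.59. Its median was RPKM 59.5 in Wt1-only cells and 0.0604 in distal-gene-only cells. Plat, tissue plasminogen activator, a secreted serine protease, ranged up to RPKM 295 with a median of 68.7 in Wt1-only cells. In distal-gene-only cells its median was 0.118 and it was detected in 1 of 14, at RPKM 50.3. Rasl11a, a small Ras-like GTPase, had a median of RPKM 110 and reached RPKM 20 in 20 of the 26 Wt1-only cells, against a median of 0 and 3 of 14 cells in the distal-gene-only class. Each of these genes was therefore low or listed at 0 in most distal-gene-only cells and high in most, but not all, Wt1-only cells.

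H19, a maternally expressed long non-coding RNA, had a median of RPKM 260 (highest 2845) in Wt1-only cells and 1.09 (highest 517) in distal-gene-only cells, a difference of 4.17. It was not absent from the distal side, since 5 of 14 distal-gene-only cells held it at RPKM 20 or more. Igf2, the paternally expressed growth factor beside H19, differed by 0.83, with medians of RPKM 6.37 in Wt1-only cells and 1.61 in distal-gene-only cells. Among 13 imprinted growth genes compared, H19 alone passed 3 log2 units, 10 were on the Wt1-only side, and the median difference was 0.65. Nnat, an imprinted membrane proteolipid, lay on the other side, at a median of RPKM 0 in Wt1-only cells and 18.0 in distal-gene-only cells (difference -2.39).

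A few genes were detected in no distal-gene-only cell at all. Sulf1, an extracellular enzyme that trims sulfate from heparan sulfate, was detected in 21 of 26 Wt1-only cells (80.8%, 60.6 to 93.4) at a median of RPKM 18.6 and in 0 of 14 distal-gene-only cells, where its highest value was 0.344. Cxcr7, a scavenging receptor for the chemokine Cxcl12, was found in 16 Wt1-only cells and Unc5c, a netrin receptor, in 19, and both in 0 distal-gene-only cells. A count of 0 of 14 cells still allows a share of up to 21.4%, taken as 3 cells of the total. In all, 7 compared genes were detected in at least 50% of Wt1-only cells and in no distal-gene-only cell.

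The remaining leading genes of the Wt1-only class ran from a difference of 3.98 to 2.75. Tmem100, a transmembrane protein of BMP signalling in vessels, had medians of RPKM 107 in Wt1-only cells and 0.151 in distal-gene-only cells (difference 3.68). Tmem37, a protein related to calcium channel subunits, had medians of RPKM 111 in Wt1-only cells and 0.249 in distal-gene-only cells (3.82). Acaa2, a thiolase of mitochondrial fatty acid oxidation, was widespread in both classes, detected in 25 of 26 Wt1-only and 9 of 14 distal-gene-only cells, with medians of RPKM 252 in Wt1-only cells and 28.2 in distal-gene-only cells. Sdc2, a syndecan that carries heparan sulfate, differed by 3.16. Btg2, an antiproliferative early-response gene, differed by 2.97 through 9 of 26 Wt1-only cells at RPKM 20 or more, with 13 cells below RPKM 1, and its highest distal-gene-only value was 1.71.

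Several of these genes share reads or sequence with a neighbour. Pcp4, a calmodulin-binding peptide (difference 3.98), overlaps Igsf5, which differed by -2.27, and the library kit keeps no strand, so reads in the overlap cannot be told apart. The small nucleolar RNA Snora70 (3.01) lies inside the ribosomal gene Rpl10, which differed by 0.22. Gstm1 (3.09) and Gstm2 (2.75), neighbouring glutathione transferases of similar sequence, can share reads and are uncertain as single genes. AI314831, which ends 19 bases from Wt1, was detected in 13 of 26 Wt1-only cells and 0 of 14 distal-gene-only cells, and 2900092D14Rik, 127 bases from Pou3f3, in 2 of 26 Wt1-only cells and 9 of 14 distal-gene-only cells. Both lie beside a gene of the rule, and whether their values are independent of it was not tested. Without 2900092D14Rik the RBPJ letters occurred in 7 of 17 leading distal promoters (41.2%).

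**Figure D2:**
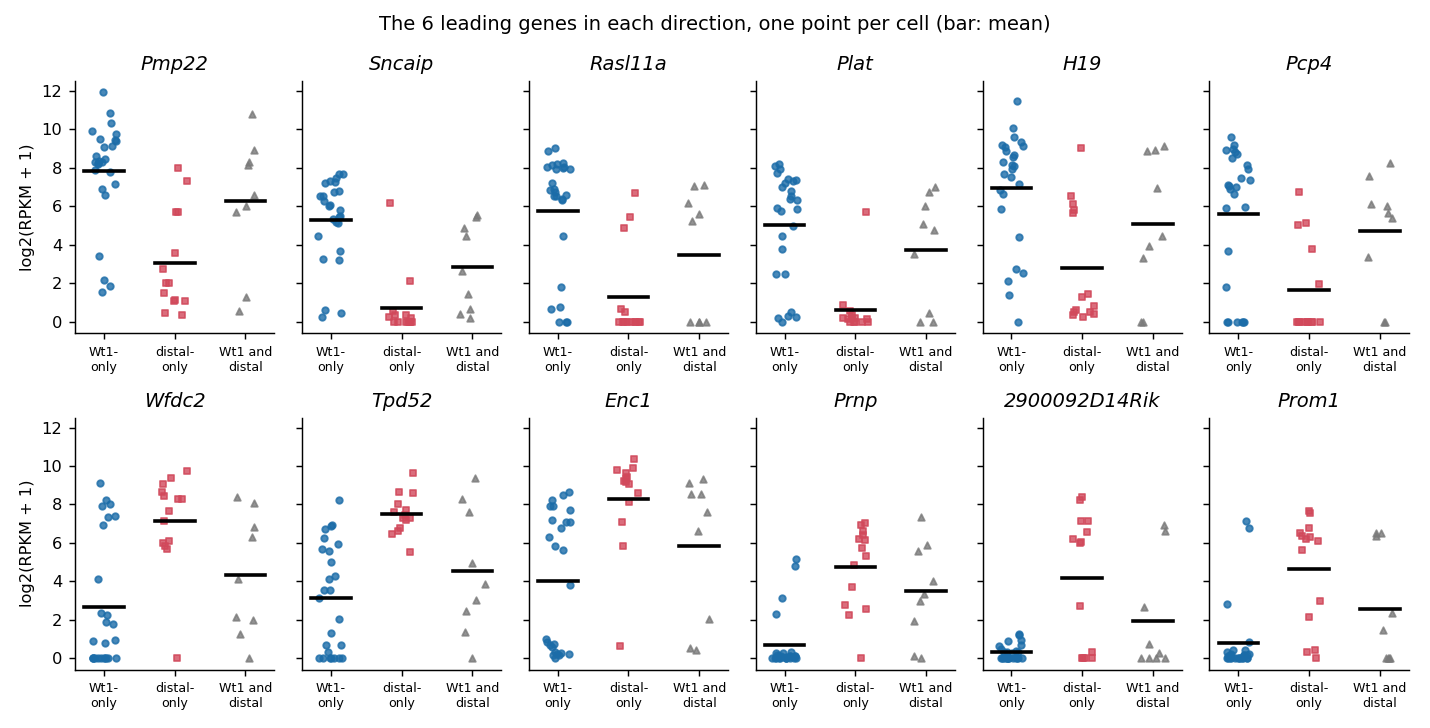
The 6 leading genes in each direction as log2(RPKM + 1), with 1 point per cell, bars at the mean, and the classes from left to right Wt1-only (26 cells), distal-gene-only (14) and cells with both Wt1 and a distal gene (9). Pmp22 averages 7.81 in Wt1-only cells and 3.04 in distal-gene-only cells, while Tpd52 averages 3.11 in Wt1-only cells and 7.49 in distal-gene-only cells, and in every panel some cells of the classes overlap.

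The genes that led in distal-gene-only cells included secreted and membrane proteins of tubular epithelia, homeobox genes and targets of FGF signalling. Wfdc2, a secreted protein of the whey acidic protein family (mm9 chromosome 2, 164388216 to 164394006), was at RPKM 0 at the lowest, 0.919 at the median and 544 at the highest in Wt1-only cells, against 0, 253 and 867 in distal-gene-only cells. It was at RPKM 20 or more in 7 of 26 Wt1-only cells and in 13 of 14 distal-gene-only cells. Its mean log2(RPKM + 1) was 2.69 ± 3.36 in Wt1-only cells and 7.16 ± 2.47 in distal-gene-only cells, a difference of -4.47. The authors' deposited table gives Wfdc2 a fold of -8.18, toward its distal class.

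Tpd52, a protein of vesicle traffic, ran from RPKM 0 to 303 with a median of 9.14 in Wt1-only cells, of which 9 of 26 reached RPKM 20. It was present in every distal-gene-only cell, from RPKM 44.9 to 800 with a median of 165. Clu, the secreted chaperone clusterin, was likewise present in every distal-gene-only cell, at 0.412 to 1780 (median 190) in Wt1-only cells and 131 to 1561 (median 546) in distal-gene-only cells. For both genes the SD over cells was larger in the Wt1-only class: 2.81 in Wt1-only and 1.04 in distal-gene-only cells for Tpd52, and 3.76 in Wt1-only and 0.96 in distal-gene-only cells for Clu. Enc1, a kelch protein of the cytoskeleton, had medians of RPKM 30.9 in Wt1-only cells and 584 in distal-gene-only cells (difference -4.30), and Prnp, the prion protein, medians of 0.0792 in Wt1-only and 45.5 in distal-gene-only cells (-4.08).

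Prom1, the cholesterol-binding membrane protein prominin, was detected in 3 of 26 Wt1-only cells (11.5%, 2.45 to 30.2) and in 11 of 14 distal-gene-only cells (78.6%, 49.2 to 95.3). Its median was RPKM 0.106 in Wt1-only cells and 70.1 in distal-gene-only cells. Emx2, a homeobox gene needed to build the kidney in mice (mm9 chromosome 19, 59533180 to 59539847), was detected in 5 Wt1-only and 11 distal-gene-only cells, with medians of RPKM 0 in Wt1-only cells and 39.3 in distal-gene-only cells. Pcdh7, a protocadherin of cell contacts, was detected in 0 of 26 Wt1-only cells, with a highest value of RPKM 0.0723, and in 10 of 14 distal-gene-only cells, with a median of 21.4. A count of 0 of 26 allows a share of up to 11.5%, again taken as 3 cells of the total. In all, 5 compared genes were detected in at least 50% of distal-gene-only cells and in no Wt1-only cell.

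Pcbd1, an enzyme of pterin recycling, was at RPKM 20 or more in 5 of 26 Wt1-only and 13 of 14 distal-gene-only cells (difference -3.62). Lrp4, a receptor of the LDL receptor family that modulates Wnt signals, was below RPKM 20 in every Wt1-only cell (highest 15.4) and at 20 or more in 8 of 14 distal-gene-only cells. The transport proteins Rab11a, Rab3ip and Stxbp6 also passed 3 log2 units, with differences of -3.16, -3.26 and -3.09.

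**Figure D3:**
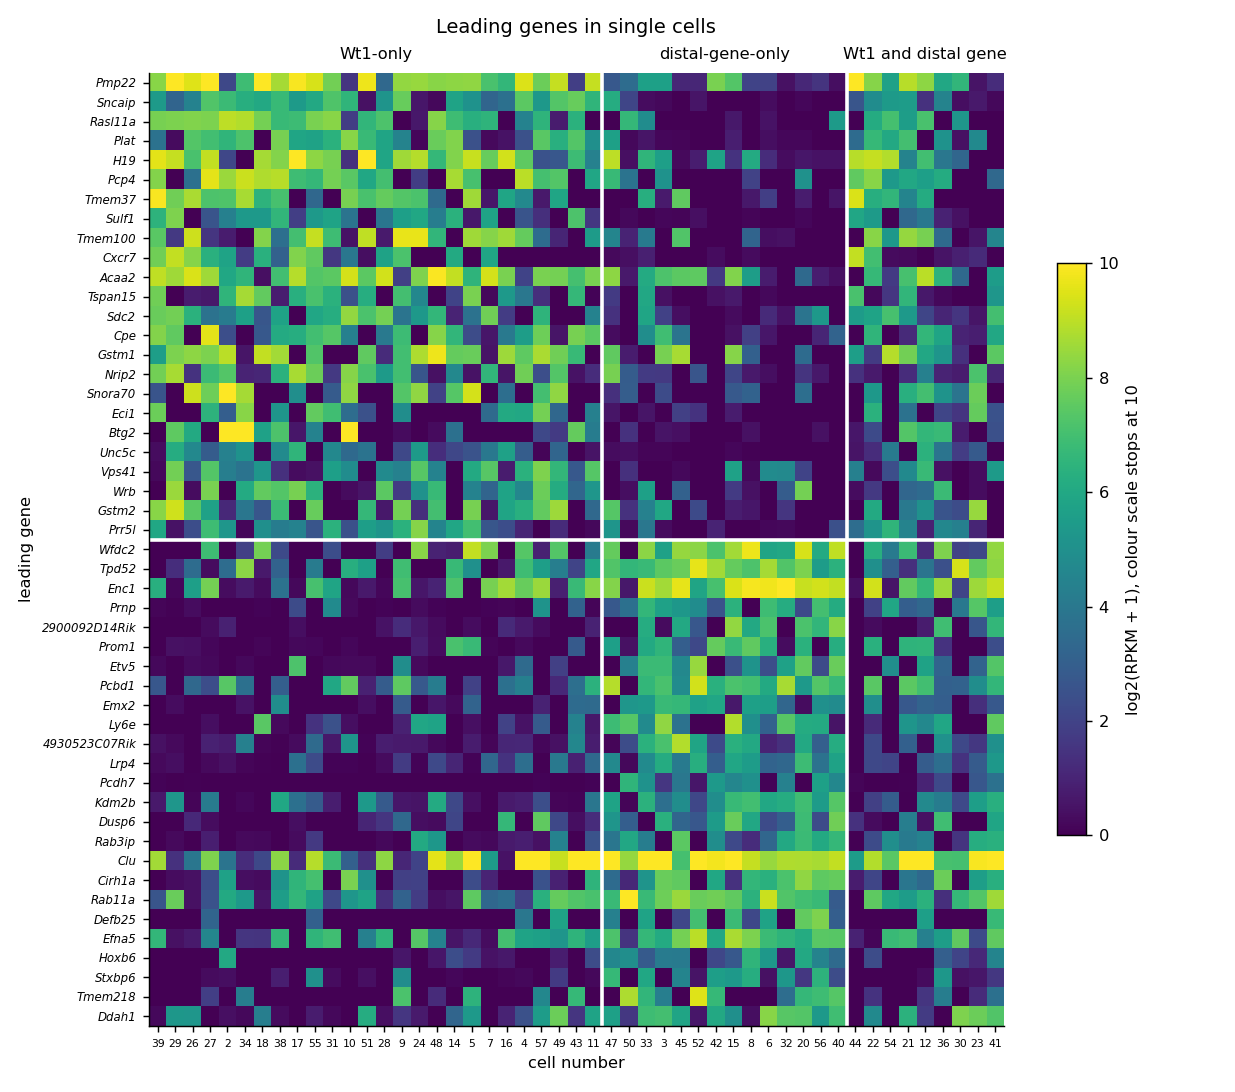
Leading genes (rows; those higher in Wt1-only cells above the line, those higher in distal-gene-only cells below it) in the 26 Wt1-only, 14 distal-gene-only and 9 cells with both (columns, by cell number, ordered within each class by the difference of the leading-gene means), coloured by log2(RPKM + 1) up to 10. Most genes are dark in some cells of the class where they lead, and Tpd52 and Clu are bright in all 14 distal-gene-only cells.

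Gene lists group the same differences. They were chosen with earlier results of these data known, and some hold genes that lead this contrast, so their counts and medians are a description and not independent evidence of a direction. Over all compared genes, 51.1% were positive, 48.9% negative, and 0.17% and 0.246% passed 3 log2 units on the Wt1-only and the distal side. The list of proximal vesicle and podocyte regulators lay to the Wt1-only side. Of its 17 compared members, 4 passed 3 log2 units there (Pmp22, Sulf1 and Tmem100 among them) and 0 on the distal side, 14 were positive, and the median difference was 1.56, against 0.02 over all compared genes. Foxc2, a forkhead factor of podocytes, differed by 2.64, with 9 of 26 Wt1-only cells and 1 of 14 distal-gene-only cells at RPKM 20 or more. Efnb2, a transmembrane ephrin, differed by 2.64, with medians of RPKM 31.2 in Wt1-only cells and 0.0767 in distal-gene-only cells, and Cdkn1c, an imprinted inhibitor of the cell cycle, by 1.81. Other members did not follow: Tcf21, a podocyte and stromal factor, differed by 0.32, or by -0.70 with medians in place of means, and Hey1, a Notch target, by 1.04 with medians near RPKM 78 in both classes, while Dach1 (-1.72) was on the distal side, as was Heyl (-0.72, or 0.11 without cells 3, 47 and 50).

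Structural genes of the mature podocyte were scarce. Of 18 compared, 15 were positive, but the median difference was 0.62 and 1 passed 3. Nphs1, the slit diaphragm protein nephrin, was detected in 2 of 26 Wt1-only cells, Podxl, the podocyte sialomucin, in 4 and Synpo, the podocyte actin organiser, in 3, and all of them in 0 of 14 distal-gene-only cells. Cldn5, a tight junction protein of podocytes and endothelium, differed by 2.62.

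Of 5 compared mesangial and smooth muscle genes, 4 were higher in Wt1-only cells, with a median difference of 0.85 and none past 3 log2 units. The summed RPKM of Acta2, Tagln and Pdgfrb had a median of 2.60 and a highest value of 988 (cell 29) in Wt1-only cells, against a median of 0 and a highest value of 94.2 (cell 47) in distal-gene-only cells. It reached 20 in 11 of 26 Wt1-only cells and in 1 of 14 distal-gene-only cells. Pdgfrb, the receptor that marks the mesangium, was at RPKM 6.90 or less in every Wt1-only cell. Stromal markers were near 0 outside cell 28, where the sum of Col1a1, Col3a1 and Pdgfra was 73.8. Macrophage markers reached 20 in 2 Wt1-only cells (cell 26 through Csf1r) and in 1 distal-gene-only cell (cell 56 through C1qb). The endothelial markers Tek and Flt1 summed to at most 3.44 in Wt1-only cells and 27.5 in distal-gene-only cells (cell 6). The cap mesenchyme markers Six2 and Cited1 summed to at most 1.04 in Wt1-only cells and 130 in distal-gene-only cells (cell 8), and the erythroid gene Alas2 reached at most 5.56 in Wt1-only cells and 5.18 in distal-gene-only cells. The part of these markers in the results was not tested. Other markers of these lists were not among the genes listed: Foxd1 of stroma, Kdr, Pecam1 and Cdh5 of endothelium, and Hbb-b1 and Hba-a1 of erythroid cells. Low sums therefore rest on part of each of these 3 lists. Leaving out the 14 cells with a macrophage, stromal or smooth muscle sum of 20 or more, 12 of them Wt1-only, left 31 genes past 3 log2 units on the Wt1-only side and 40 on the distal side, of which 14 on the Wt1-only side and 19 on the distal side were among those above.

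The list of distal vesicle and tubule genes lay wholly to the other side. All 12 compared members were negative, 2 passed 3 log2 units (Wfdc2 and Emx2), and the median difference was -2.08. Jag1, the Notch ligand, was detected in every cell of both classes, at RPKM 2.63 to 453 (median 118) in Wt1-only cells and 212 to 772 (median 393) in distal-gene-only cells. Lhx1, a LIM homeobox factor needed for vesicle patterning, was at 0 to 321 (median 24.7) in Wt1-only cells and 33.7 to 431 (median 96.3) in distal-gene-only cells. The lowest Jag1 value of the distal class thus exceeded the Wt1-only median, and the lowest Lhx1 value did so too. Greb1, an early oestrogen-response gene, differed by -2.81, and the receptor tyrosine kinase Erbb4 and the kidney cadherin Cdh16 differed by -0.78 and -0.87. The list of 17 renal vesicle genes, which shares members with it, had a median of -1.42, with Wnt4 at -0.11 and Fgf8, a secreted FGF, listed at 0 in all 26 Wt1-only cells and detected in 5 of 14 distal-gene-only cells.

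FGF and ERK genes ran the same way as the distal list. Of 17 compared, 15 were negative, against 48.9% of all compared genes, 2 passed 3 log2 units, against 0.246%, and the median was -1.26. Etv5, an ETS factor induced by FGF and RET signals, was detected in 4 of 26 Wt1-only and 12 of 14 distal-gene-only cells, with medians of RPKM 0.0764 in Wt1-only and 29.4 in distal-gene-only cells (difference -3.83). Dusp6, the phosphatase that ERK induces against itself, was detected in 9 Wt1-only and 13 distal-gene-only cells (-3.33), and Spry2, another feedback inhibitor, differed by -2.34. Etv5 and Hoxb7 are also genes of the ureteric bud. Hoxb7 reached RPKM 100 in Wt1-only cells and 391 in distal-gene-only cells. Wnt11, which marks the ureteric tip, was near 0 in both classes, at most 0.261 in Wt1-only cells and 0 in every distal-gene-only cell. The sum of Hoxb7 and Wnt11 reached 20 in 3 of 26 Wt1-only and 6 of 14 distal-gene-only cells. Ret, another marker of the bud, was not among the genes listed.

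Notch and Wnt genes split by member. In the Notch list none of 21 compared genes passed 3 log2 units and the median was -0.30. The receptor Notch1 had medians of RPKM 7.81 in Wt1-only cells and 33.1 in distal-gene-only cells (-1.68), whereas the receptor Notch2 had medians of 33.2 in Wt1-only cells and 19.6 in distal-gene-only cells (1.06). The target Hes1 differed by -1.95, the target Hey2 by 1.45 and Rbpj itself by 1.28. In the Wnt list of 28, none passed 3 and the median was -0.31, and Sfrp2, a secreted Wnt modulator, was at RPKM 140 at the median in Wt1-only cells and 437 in distal-gene-only cells (-2.32). The BMP and TGF-beta list of 26 had a median of 0.53 with none past 3. Retinoic acid genes diverged: Rdh10, which makes retinal, differed by 2.49 and Aldh1a2, which turns retinal into retinoic acid, by -2.56.

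Guidance and adhesion genes showed the same division by member. Efnb1 (2.68), Efnb2 (2.64) and Unc5c (2.89) were higher in Wt1-only cells, whereas Efna5 (-3.12), Epha4 (-2.67) and Epha7 (-2.31) were higher in distal-gene-only cells, with a median of 0.43 over 32 compared genes. Among the epithelial adhesion genes, Epcam was detected in 1 of 26 Wt1-only and 7 of 14 distal-gene-only cells, and Cdh1, E-cadherin, in 3 Wt1-only and 8 distal-gene-only cells. Cldn6, a claudin of early epithelia, was detected in 0 Wt1-only and 5 distal-gene-only cells. On the Wt1-only side, Nid1, a basement membrane linker, differed by 2.64 and Sparc, a matrix glycoprotein found in all 26 Wt1-only and 13 distal-gene-only cells, by 2.12. The 31 matrix and integrin genes together had a median of 0.24.

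Of 17 compared Hox genes, 12 were negative, against 48.9% of all compared genes, and 5 were positive. Hoxb6 was detected in 4 of 26 Wt1-only cells and 12 of 14 distal-gene-only cells (difference -3.11), Hoxa10 differed by -2.52 and Hoxb7 by -2.34, while Hoxc10 differed by 1.00 and the median of 17 was -0.41. Of 27 S phase genes, 22 were positive, against 51.1% of all compared genes, with a median of 0.49, among them Prim1, a primase subunit (2.55), and Mcm4, a replicative helicase subunit (2.06). Of 24 G2/M genes, 19 were negative, against 48.9% of all, with a median of -0.58, among them Cenpf (-2.31) and Ccnb2 (-1.99), and none of either list passed 3. Among 16 early-response and dissociation genes the median was 0.58, with Jun at 2.04 and Btg2 at 2.97. Housekeeping genes had a median of 0.01 over 20, with single genes from -1.53 to 1.73. Many of the single-gene differences given for other lists lie within that span.

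The other lists stayed closer to the centre or held few compared genes. Of 26 sulfation and heparan sulfate genes, Sulf1 and Sdc2 passed 3 log2 units and the median was 0.23, with Hs6st1, a heparan sulfate sulfotransferase, at -1.52. Of 13 nephron progenitor genes, Tmem100 passed 3 and the median was 0.12. Within that list Eya1, a progenitor co-activator, differed by 1.85 and Sall1, a zinc finger factor, by -2.29. Of 11 stromal genes none passed 3 and the median was 0.49, with Meis1, a homeobox gene, at 2.18. Of 7 parietal epithelium genes, Prom1 passed 3 on the distal side and the median was -0.55. The medians were -0.19 over 6 proximal tubule genes, 0.32 over 15 G1 genes, -0.05 over 6 immune genes and -0.06 over 25 metabolic genes, with none past 3 log2 units. Among the metabolic genes Hk2, a hexokinase, had medians of RPKM 0 in Wt1-only cells and 20.2 in distal-gene-only cells (difference -2.73). All 4 compared genes of the ureteric bud and collecting duct were on the distal side, against 48.9% of all compared genes, with a median of -1.61. Of these, 1 passed 3 log2 units: Etv5, which is also counted in the FGF and ERK list.

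**Figure D4:**
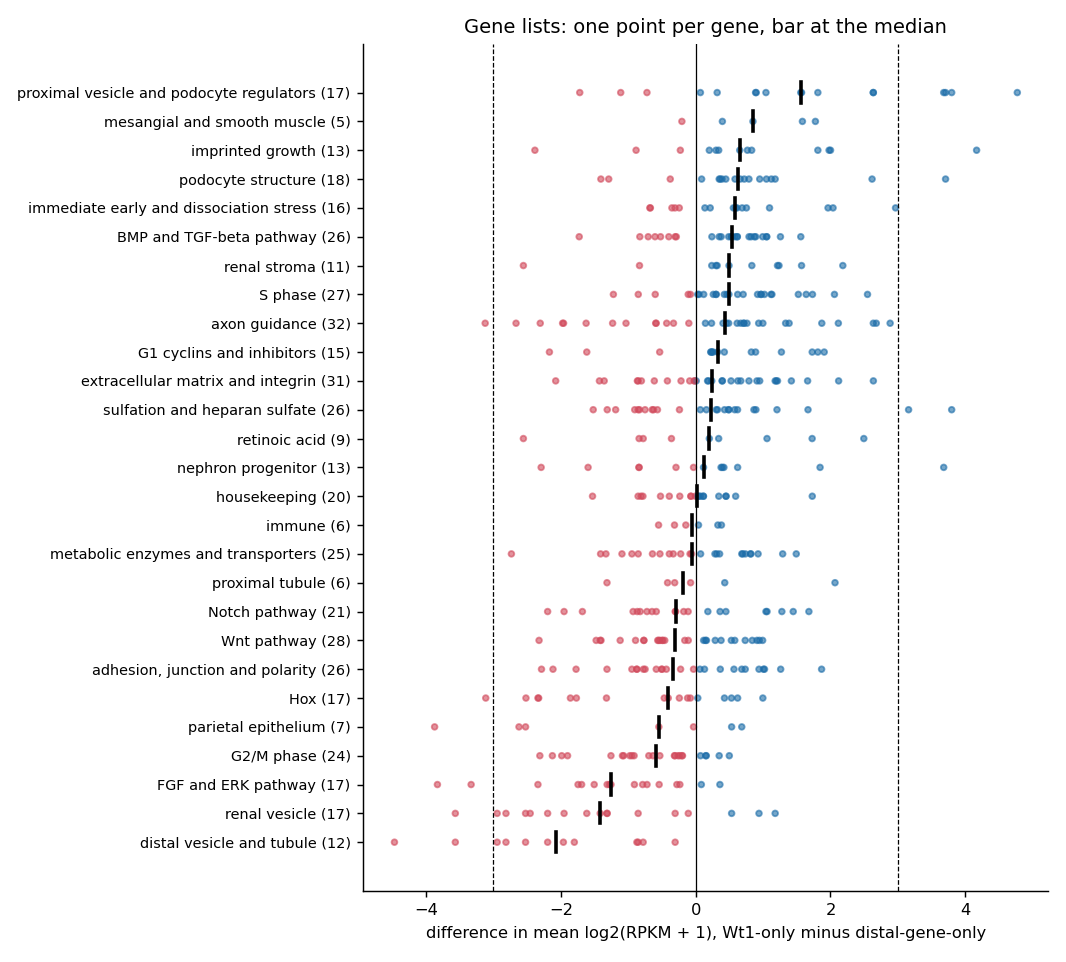
Differences in mean log2(RPKM + 1), Wt1-only minus distal-gene-only (horizontal axis), for the compared members of each list with at least 5 of them (number in brackets), 1 point per gene, black bars at the median and dashed lines at 3 log2 units either way. The proximal vesicle and podocyte list has its median at 1.56, the distal vesicle and tubule list at -2.08, and housekeeping genes at 0.01. Single housekeeping genes run from -1.53 to 1.73.

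The 9 cells that held both Wt1 and a distal gene took no part in choosing the leading genes. In them the mean log2(RPKM + 1) of all 25 Wt1-only genes and of all 25 distal genes lay between the means of the classes. These genes were chosen for the largest class differences, so a place in between was likely in advance and is a description only. The share of all compared genes with such a place is not given. The median position, on a scale where 0 is the lower class and 1 the higher, was 0.615 for the genes that led in Wt1-only cells and 0.350 for the genes that led in distal-gene-only cells. The cells were not uniform. The mean over the 25 Wt1-only genes was 1.60 to 5.07 (median 3.52) in these cells, against 3.20 to 6.12 in Wt1-only cells and 0.41 to 3.10 in distal-gene-only cells. The mean over the 25 distal genes was 0.37 to 6.14 (median 3.42), against 0.95 to 3.21 in Wt1-only cells and 3.33 to 6.19 in distal-gene-only cells.

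Single cells of the mixed kind reached both extremes. Cell 41 had a distal mean of 6.14 with a proximal mean of 2.10 and detected all 25 distal genes. Cell 44 had a distal mean of 0.37, below every Wt1-only cell, with a proximal mean of 3.52, and detected 2 of the 25 distal genes. Cells 12, 21 and 36 had proximal means of 4.50, 5.00 and 3.31, within the range of Wt1-only cells. Their distal means of 3.62, 3.42 and 3.96 entered the range of distal-gene-only cells only through cell 50 (3.33). The next lowest distal-gene-only cell, cell 47, was at 4.64. Cell 22, with the highest proximal mean of the 9 (5.07), had a distal mean of 3.15, below every distal-gene-only cell. Without 2900092D14Rik, the distal mean of the 9 cells was 0.38 to 6.12 (median 3.56). The number of genes detected in the 9 cells ran from 2857 (cell 44) to 6502 (cell 41). Its median of 5379 was above the medians of both classes. Cell 44 was below every Wt1-only cell in this number (lowest 3692), and cell 41 was above every cell of both classes. The part of detection in their distal means was not tested, nor was whether a chamber held more than 1 cell.

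**Figure D5:**
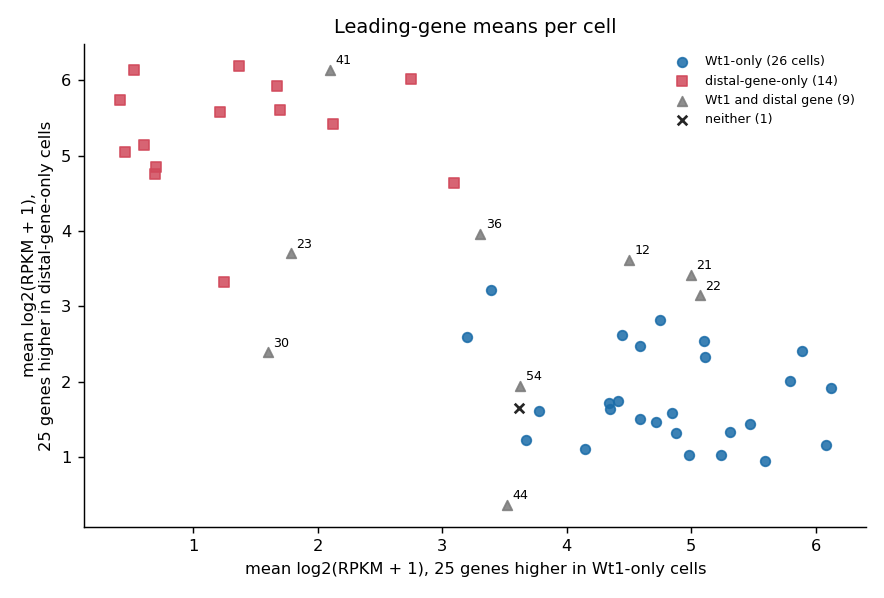
Mean log2(RPKM + 1) of the 25 leading Wt1-only genes (horizontal axis) against that of the 25 leading distal genes (vertical axis), 1 point per Pax8 cell, with cell numbers beside the 9 cells that hold both Wt1 and a distal gene. The split of Wt1-only and distal-gene-only cells follows from how the genes were chosen; the mixed cells run from cell 44 at 0.37 to cell 41 at 6.14 on the distal axis.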

How the data were processed

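Values are RPKM of 12087 genes in 57 single cells, as the authors deposited them and not logged, per the file headers. A second table deposited by the authors sets cells they call proximal against cells they call distal, with a signed fold for 787 genes, used here as a score. Its formula and the class of each cell are not given in the sources used here, and it shares cells with the comparison. Build mm9 and the tools DESeq and TopHat 1.4.1 appear in the submitters' processing notes, without their roles. Of the leading genes, 22 of 25 and 25 of 25 are in that second table, an overlap that is not independent evidence because cells are shared.

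The members and lists were chosen with earlier results of these data known. Cells were classed by the rule given in the report. Genes with mean RPKM of 1 or more over the compared cells were kept. The difference is that of mean log2(RPKM + 1), so it understates differences of low genes. A gene counts as detected at RPKM 1 or more, and shares carry exact Clopper-Pearson 95% intervals, which cover counting error over cells of this pool only. No p-value was computed, since the cells come from 1 pool and were classed by their own values. Named genes are the 25 with the largest difference in each direction that were detected in at least 50% of cells of the higher class, the members of the proximal and distal lists, the 2 largest in each direction of every other list, and the 5 largest in share; others named were chosen after their values were seen. A few genes that this rule takes are not reported here. The limit for a count of 0 cells is 3 cells of the total. Depth was estimated in 1015 genes with 1 transcript, from the commonest value of RPKM times transcript length, taken as 1 read. Whether that value is 1 read was not tested, and the lengths come from an annotation of a later build than mm9. Scripts were tested on simulated data. Python 3.11.15, numpy 2.4.6, pandas 2.3.3, scipy 1.17.1 and matplotlib 3.10.9 were used. Alternative pseudocounts, filters, cuts, scalings, detection limits and cell sets were tried.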

Additional observations from a re-analysis of the deposited data

How the results depend on the processing

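Counts are given as Wt1-only higher, then distal-gene-only higher. The counts past 3 log2 units (18 and 26) were 117 and 137 with a pseudocount of 0.1 and 1 and 1 with a pseudocount of 10. They were 120 and 137 at a size of 2 log2 units, 5 and 4 at 4 log2 units, and 141 and 217 with medians in place of means. Scaling each cell to a sum of RPKM of 1000000 gave 44 and 50, and scaling to the median sum gave 19 and 26; both kept all 18 and 26 of the original calls. The counts of genes past 50 percentage points (27 and 35) were 7 and 15 with detection at RPKM 20, 85 and 109 at 40 points, and the distal-gene-only count was 17 with detection above 0.

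The settings of this paragraph changed the cells and, like scaling to the median sum, were chosen after seeing the data. Without cells 3, 47 and 50, the counts were 29 and 45 by size and 41 and 59 by share. Without the 14 cells with macrophage, stromal or smooth muscle sums of 20 or more, they were 31 and 40 by size and 44 and 81 by share. Leaving out each of the 40 cells in turn gave 14 to 22 and 23 to 34 by size and 20 to 33 and 32 to 57 by share. The single cells that took a gene under 3 log2 units furthest were cells 32 (Acaa2, 2.89), 27 (Cpe, 2.91), 6 (Gstm1, 2.87; Ddah1, -2.83), 20 (Cirh1a, -2.96), 50 (Rab11a, -2.94), 56 (Defb25, -2.82; Spint2, -2.77), 52 (Efna5, -2.96), 8 (Hoxb6, -2.90) and 47 (Stxbp6, -2.85), besides those named in the report. The cause of the shifts in this and the preceding paragraph was not tested, other than that stricter or looser limits pass fewer or more genes by construction.

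No gene past 3 log2 units changed sign. Over 477 genes (all compared members of the lists, the leading genes and the neighbours named) and 54 settings, 25732 values stayed within 1 SD of the main value and 26 moved. The SD is over single cells. Of the settings, 40 left out 1 cell, which by construction shifts a class mean by less than that SD. Values under those settings could not move, so the count of 25732 is not a measure of stability for these genes. The sign changed under some setting for 118 of these genes, none with a difference over 1.58 either way; those whose difference the report gives are Tcf21, Heyl, Igf2 (-0.42 without the 14 cells), Wnt4 (0.24 with Pax8 at RPKM 20) and Rpl10 (-0.01 without the cell of each class with the fewest detected genes). Of 27 list medians, 5 changed sign under some setting: housekeeping, immune, proximal tubule, retinoic acid, and metabolic enzymes. Other alternatives planned for the cut, the Pax8 limit and the filter left all 4 counts within 1.5 times. So did leaving out cell 56, which held C1qb above RPKM 20, or the cell of each class with the fewest detected genes. No paired analysis was possible because all cells form 1 group from 1 pool and carry no replicate numbers. With 26 and 14 cells of 1 pool, a gene in few cells cannot be placed in either class with precision.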
